A study of Sus scrofa with 37 samples.

Results

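Purified, cultured islets were compared with pieces of whole pancreas among the pig samples whose islet density label reads High. The members were all samples with that label that had a column of counts, and they came to 16 libraries of 37 samples in the series, 35 of which had a column. Of these 16, 8 were islets that had been freed from the organ, purified and kept in floating culture for 7 days. The other 8 were pieces of 50 mg, taken from the duodenal lobe when the organ was retrieved. The labels give no genotype, breed, age or drug treatment, and do not say how density was measured. Tissue, purification and culture change together between the groups, so their parts in a difference cannot be told apart. For 2 more islet samples with the High label (15LS27, 15LS30) no counts were analysed here.

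The title code names the animal. There were 5 animals with both tissues in the comparison: 11KS28 (islet replicate 1, pancreas replicate 1), 12FS131 (2 and 3), 12FS133 (3 and 4), 15LS29 (7 and 6) and 16CS60 (8 and 7). Islet replicates 4, 5 and 6 came from 12FS135, 12FS161 and 15AS28. Pancreas replicates 2, 5 and 8 came from 12AS51, 15LS26 and 16IS5. The pancreas of 12FS135 and 12FS161 was labelled Low, as were the islets of 15LS26 and 16IS5, so the label belongs to a sample and not to an animal. Islet replicate 1 has a title that says islets and a source name that says pancreas.

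Islets are clusters of endocrine cells scattered through the exocrine pancreas. Their beta cells secrete insulin, alpha cells glucagon, delta cells somatostatin and PP cells pancreatic polypeptide, each from granules that release their load when calcium enters an electrically excited cell. Around them, acinar cells make digestive enzymes as inactive precursors in zymogen granules, and duct cells add a bicarbonate fluid that carries the enzymes to the gut.

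Totals over genes ran from 3237653 to 5313277 counts per library in islets and from 1855075 to 3922006 in pancreas. In CPM (counts per 1000000 of a library), the floor of 3 counts lay between 0.565 and 0.927 in islets and between 0.765 and 1.62 in pancreas. Floors and intervals here cover counting error only. Islet replicate 6 stood apart. Its 10 most abundant genes took 52.3% of counts, against 21.8% to 37.0% in the other 7, and its median correlation with the other islet libraries was 0.907 (log2(CPM + 1) across genes, which are not independent), against 0.940 to 0.961. Nothing in the labels says that the samples were prepared or sequenced in batches. Gene levels below are normalised CPM, which divide counts by the library size after TMM scaling (trimmed mean of M values, which corrects for a few genes that take many counts). Levels are not corrected for gene length, so they compare libraries and not genes.

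The tissue labels matched their defining markers. The 4 matched hormone genes together took 3.54% to 6.87% of islet counts (median 4.81%) and 0.0449% to 0.221% of pancreas counts (median 0.0842%). Digestive enzymes with the helper proteins of acinar secretion, 24 genes, took 19.98% to 29.97% of pancreas counts (median 23.4%) and 0.00256% to 0.0611% of islet counts (median 0.00633%). Neither sum overlapped between the groups. Islet replicate 1, the library with the discordant source name, held 4.82% hormone counts (95% Wilson interval 4.80 to 4.84) and 0.00621% acinar counts (0.00547 to 0.00706). Islet replicate 7 had the most acinar counts of the islets, at 0.0611% (0.0586 to 0.0637). By median share of counts, INS was the most abundant gene with a symbol in islets (1.89% to 6.14% of a library), ahead of COX1, CHGA and GCG. The lowest INS share was that of islet replicate 6, where COX1 took 3.39%. In pancreas the most abundant was CPA1 (4.02% to 7.93%), ahead of PNLIP, CPB1 and PRSS2. Identifiers with no symbol were ahead of these in both tissues. ENSSSCG00000018061 took a median of 12.3% of islet counts and 5.33% of pancreas counts, ENSSSCG00000018063 took 8.46% and 5.31%, and ENSSSCG00000036013 took 7.45% of pancreas counts. The other identifiers among the 10 most abundant of a tissue were ATP6, COX2, ENSSSCG00000019556 and ENSSSCG00000034995 in islets, and PLA2G1B (a phospholipase), GALNT6 and PNLIPRP1 in pancreas.

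**Figure D1:**
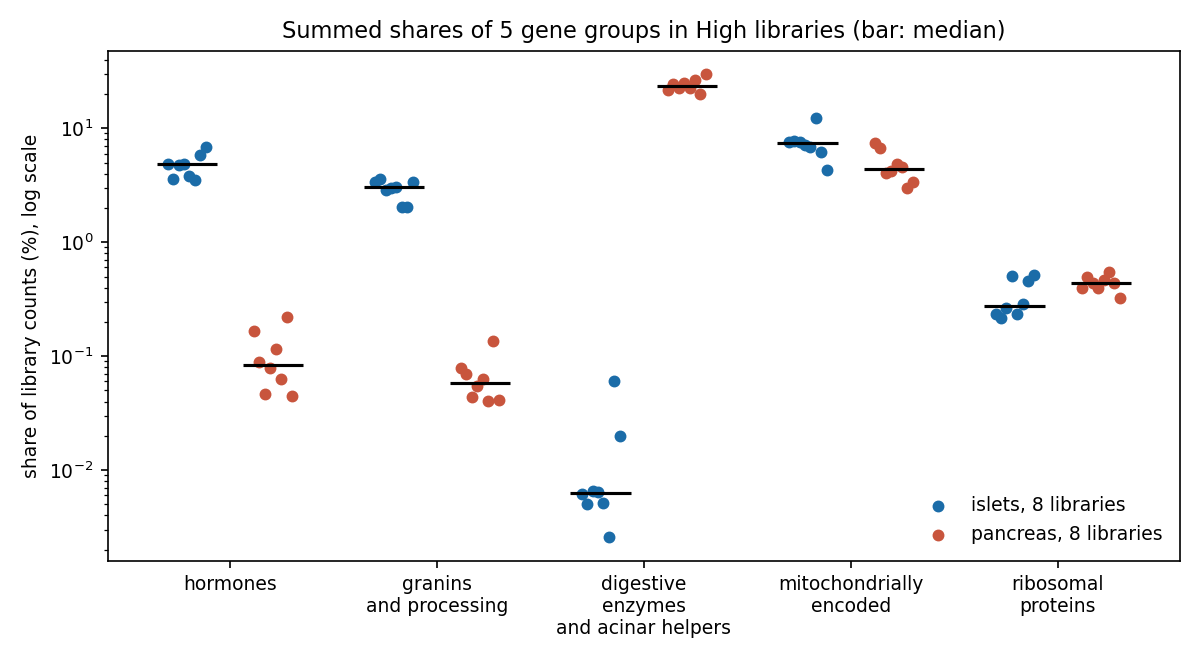
Share of each library's counts, in percent on a log axis, taken by 5 groups of genes, with 1 point per library and a bar at the median of 8. Hormone, granin and digestive enzyme shares do not overlap between islets and pancreas, while mitochondrially encoded and ribosomal protein shares do.

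Of 11685 genes tested, 7134 (61.1%) differed between islets and pancreas at an adjusted p of 0.05 (edgeR's quasi-likelihood test, adjusted after Benjamini and Hochberg, which gave every adjusted p below). Of all tested genes, 30.7% (3582) were higher in islets and 30.4% (3552) lower, with a median log2 fold change of -0.02. A test against a 2-fold change kept 2881 genes (24.7%). For 3395 genes (29.1%) the islet and pancreas libraries did not overlap in normalised CPM. A count of members that passed has to be read against these shares. To be tested at all, a gene had to reach a minimum count in at least 8 libraries, so a gene present in 1 tissue had to reach it in every library of that tissue. In bulk RNA, fewer cells of a type and less RNA per cell cannot be told apart. The labels do not say whether the animals of a group were independent beyond their codes, and p-values rest on the spread between these samples. The main test treated all 16 libraries as independent, although 5 animals supplied a library to both groups.

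**Figure D2:**
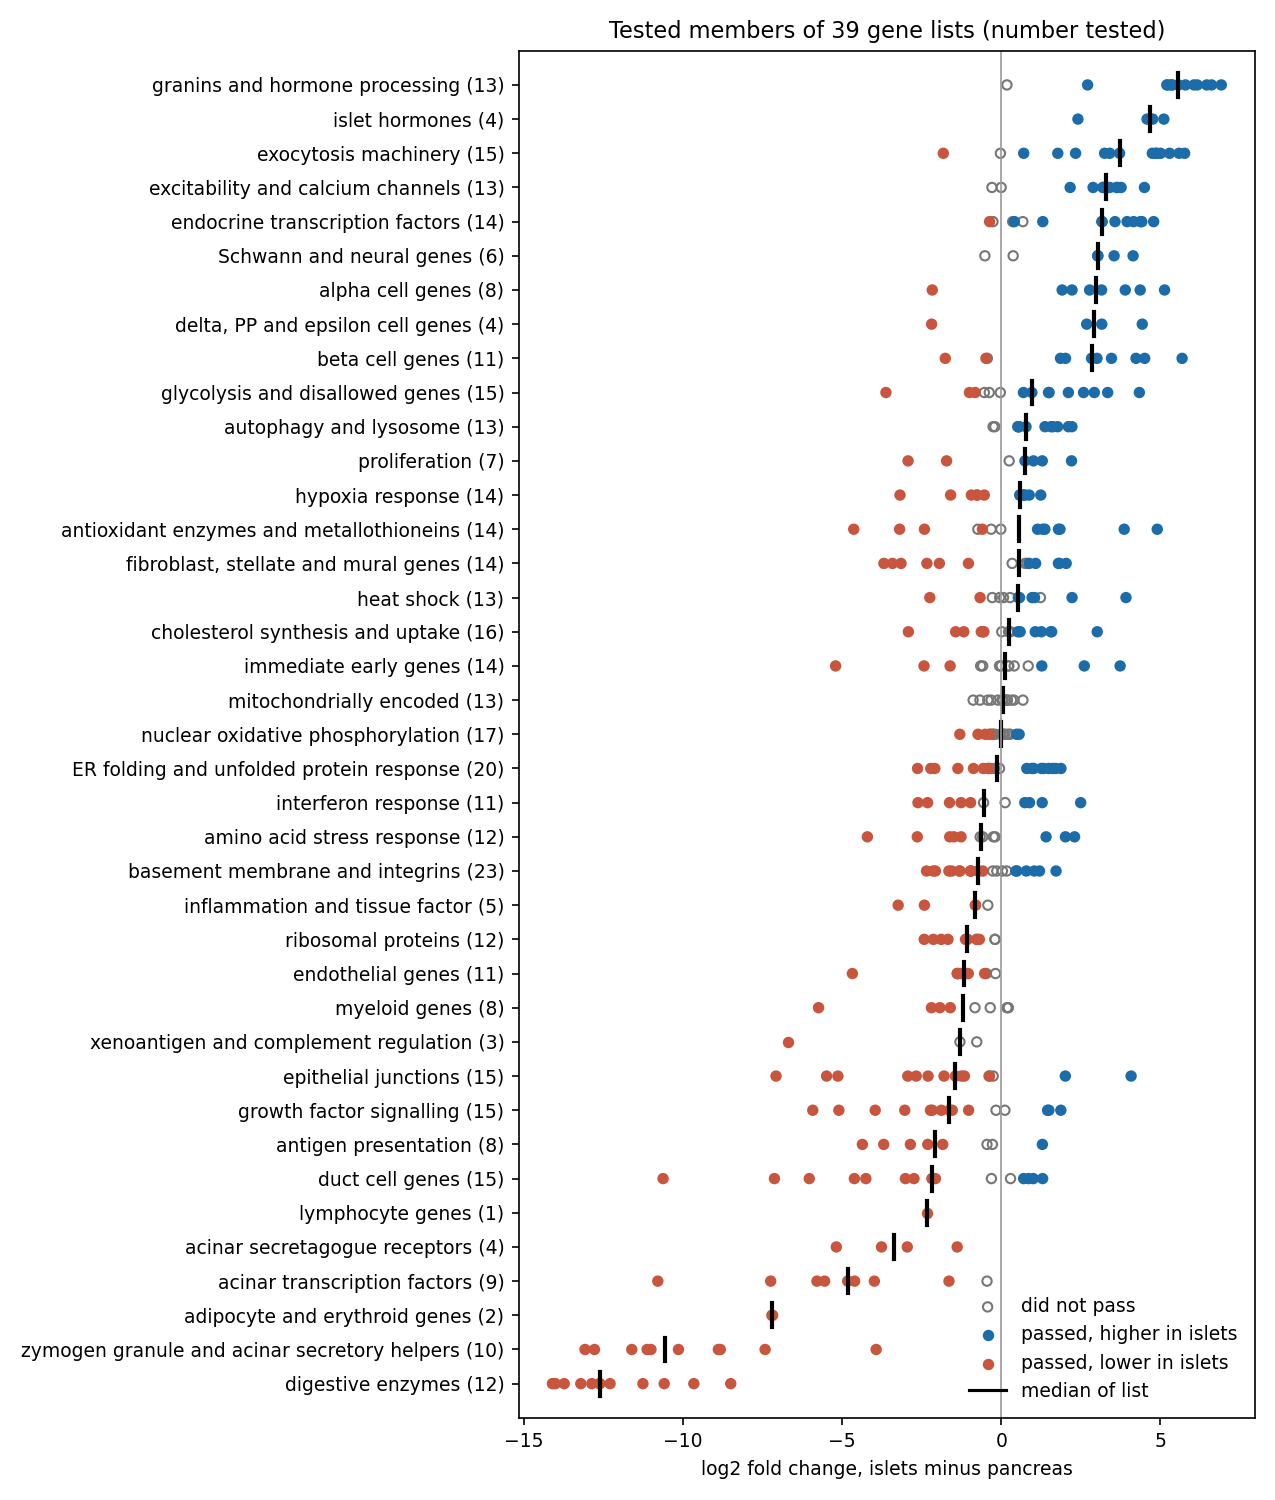
Log2 fold change (islets minus pancreas) of every tested member of 39 gene lists, ordered by list median, with the number tested in brackets. Filled points passed the test and open points did not; granins and hormones lie at the top and digestive enzymes at the bottom, with the stress, hypoxia and metabolic lists spread on both sides of 0.

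The hormone genes were higher in islets, all 4 of 4 tested, with a median log2 fold change of 4.67. INS (ENSSSCG00000033740), which encodes insulin, had 18768, 27429 and 45536 normalised CPM as the lowest, median and highest islet library, and 328, 735 and 1768 in pancreas. Every islet library was above every pancreas library, and the log2 fold change was 5.11 (SE 0.47, adjusted p = 3.72e-09). GCG (ENSSSCG00000015895), glucagon, ran from 3288 through a median of 6711 to 20660 in islets and from 108 through 348 to 639 in pancreas, a difference of 4.58 (SE 0.49, adjusted p = 4.86e-08) with no overlap. SST (ENSSSCG00000033815), somatostatin, spanned 125, 384 and 937 in islets and 7.26, 13.4 and 32.4 in pancreas, a difference of 4.76 (SE 0.46, adjusted p = 5.48e-08), again with no overlap. PPY (ENSSSCG00000017368), pancreatic polypeptide, was the one hormone whose groups overlapped, with 25.7, 61.2 and 108 in islets and 0, 5.77 and 49.0 in pancreas. Its difference was 2.41 (SE 0.69, adjusted p = 0.0067), and 3.25 (SE 0.63) without pancreas replicate 2. PPY did not pass with log2 library total as a covariate (2.10, SE 0.97, adjusted p = 0.0824).

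Proteins that pack and cut hormones in the secretory granule were higher in islets for 12 of 13 tested genes, with a median of 5.57 and no overlap for any of the 12. The largest difference was in PTPRN, a membrane protein of dense-core granules. Its islet libraries held 182, 226 and 304 normalised CPM (lowest, median, highest), and its pancreas libraries 0.454, 1.59 and 6.0, a log2 difference of 6.92 (SE 0.28, adjusted p = 3.21e-14). The granins SCG3 (6.61, SE 0.41), VGF (6.46, SE 0.33) and CHGB (6.16, SE 0.40) followed. Prohormone convertase PCSK1 spanned 310, 1210 and 1886 in islets and 6.12, 15.3 and 53.0 in pancreas, a difference of 6.06 (SE 0.47, adjusted p = 1.64e-09). The second convertase, PCSK2, spanned 2537, 3117 and 3923 against 27.9, 56.8 and 132 (5.57, SE 0.34, adjusted p = 5.75e-12). The carboxypeptidase CPE, which trims the cut ends, spanned 1030, 2005 and 2452 against 17.2, 44.6 and 76.5 (5.38, SE 0.33, adjusted p = 6.8e-12). PAM, the amidating enzyme, had the smallest difference among the 12, at 2.71 (SE 0.23, adjusted p = 9.62e-10). PTPRN2, a relative of PTPRN, was the one member that did not pass, with a log2 fold change of 0.18 and islet and pancreas medians of 191 and 161.1.

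Genes that mark single endocrine cell types were mostly higher in islets. Among beta cell genes 8 of 11 tested were higher and 2 lower, with a median of 2.84. G6PC2, the islet glucose-6-phosphatase, had 78.6, 141 and 198 normalised CPM in islets and 0, 1.03 and 9.0 in pancreas (log2 difference 5.68, SE 0.45, adjusted p = 2.84e-09). ABCC8, the sulfonylurea receptor subunit of the ATP-sensitive potassium channel, differed by 4.51 (SE 0.25), the granule zinc transporter SLC30A8 by 4.24 (SE 0.33) and the beta cell transcription factor NKX6-1 by 3.47 (SE 0.25). PDX1, another regulator of the beta cell, matched no identifier. The 2 lower members were ADCYAP1R1, a receptor for the neuropeptide PACAP (-1.76, SE 0.37, adjusted p = 0.000293), and ERO1B, an oxidase of the endoplasmic reticulum (-0.48, SE 0.16, adjusted p = 0.0133). The groups of both overlapped, and ERO1B no longer passed without islet replicates 1, 6 and 7 (adjusted p = 0.0689), with no filter on low counts (0.0975) or with all 4 groups in 1 fit (0.412).

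Alpha cell genes were higher for 7 of 8 tested (median 2.97). TTR, transthyretin, held 1105, 1847 and 2513 normalised CPM in islets and 21.1, 41.0 and 107 in pancreas, a difference of 5.13 (SE 0.34, adjusted p = 3.29e-11). The alpha cell transcription factor IRX2 (4.37, SE 0.46) and the glucagon receptor GCGR (3.15, SE 0.65, and 4.25 without pancreas replicate 7) followed. SLC38A5, an amino acid transporter listed for alpha cells, went the other way. It spanned 5.69, 7.87 and 14.8 in islets and 21.9, 31.7 and 56.4 in pancreas, so no islet library reached the pancreas (-2.17, SE 0.23, adjusted p = 4.69e-08). In the list for delta, PP and epsilon cells, 3 of 4 tested were higher and 1 lower. These were the calcium-sensing receptor CASR (4.43, SE 0.50), the transcription factor ETV1 (3.16, SE 0.41) and the leptin receptor LEPR (2.69, SE 0.29), with the ghrelin receptor GHSR at -2.19 (SE 0.22, adjusted p = 1.6e-08) and no overlap.

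Transcription factors of the endocrine lineage were higher in islets for 10 of 14 tested, and 1 was lower (median 3.17). RFX6, needed for endocrine differentiation, had 178, 394 and 557 normalised CPM in islets and 4.54, 14.7 and 23.5 in pancreas (log2 difference 4.79, SE 0.34, adjusted p = 2.62e-10). NEUROD1 (4.42, SE 0.27), PAX6 (4.37, SE 0.24) and the zinc finger factor MYT1 (4.16, SE 0.38) were close behind. HNF4A, a regulator shared by endocrine and exocrine cells, was lower by a small amount (-0.37, SE 0.15, adjusted p = 0.0418) with overlapping groups. With animal as a block its adjusted p was 0.137, and it also failed without any 1 of 11 libraries (adjusted p from 0.0502 to 0.0991).

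Secretion and excitability genes rose alongside them. In the exocytosis list 13 of 15 tested were higher and 1 lower (median 3.72), and 13 members did not overlap between groups. The synaptotagmins, membrane trafficking proteins, SYT4 (5.76, SE 0.30), SYT13 (5.59, SE 0.32) and SYT5 (5.29, SE 0.31) and the active zone scaffold RIMBP2 (5.01, SE 0.27) had the largest differences. SYT4 alone spanned 144, 240 and 291 normalised CPM in islets and 2.25, 2.73 and 13 in pancreas. SYTL4 (granuphilin), which docks granules, was lower, with 4.28, 6.51 and 9.83 in islets against 17.4, 25.4 and 28.3 in pancreas (-1.82, SE 0.18, adjusted p = 1.01e-08). Of 13 tested ion channels and calcium pumps, 11 were higher and none lower (median 3.29). The largest were TRPM5, a calcium-activated cation channel (4.50, SE 0.53), the sodium channels SCN3A (3.77, SE 0.29) and SCN9A (3.67, SE 0.27), and the calcium channel CACNA1A (3.63, SE 0.24). None of these 4 overlapped between groups.

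**Figure D3:**
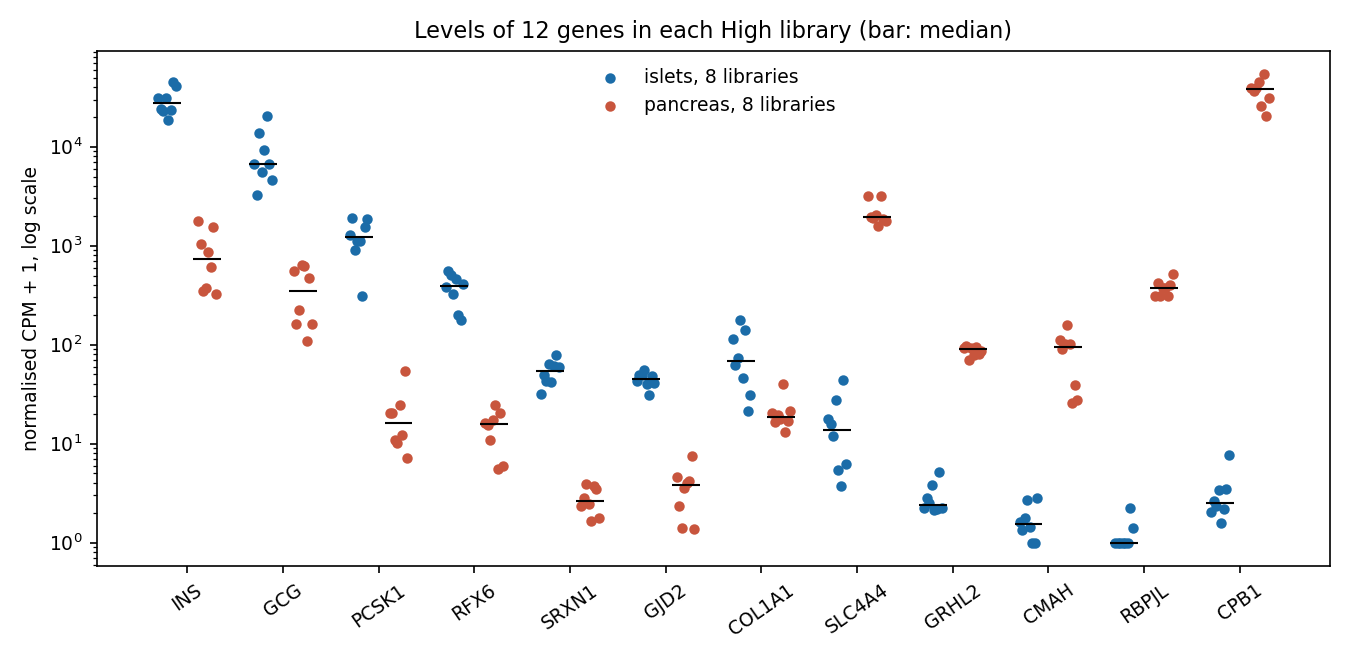
Normalised CPM plus 1, on a log axis, of 12 genes in each of 8 islet and 8 pancreas libraries, with a bar at the median. COL1A1 overlaps between the tissues; the other 11 genes do not, and no islet library exceeds 1.23 for RBPJL or 6.70 for CPB1.

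Acinar products fell furthest. All 12 tested digestive enzymes were lower in islets, with a median of -12.62 and no overlap. CELA2A, an elastase, had 0, 0.190 and 2.03 normalised CPM in islets and 4239, 7311 and 15906 in pancreas (-14.11, SE 0.62, adjusted p = 6.29e-14). Carboxypeptidase CPB1 (ENSSSCG00000011694) had 0.576, 1.51 and 6.70 against 20242, 38209 and 54093 (-14.01, SE 0.65, adjusted p = 1.28e-13). Pancreatic lipase PNLIP (ENSSSCG00000010658) had 0.499, 1.92 and 15.2 against 28549, 47726 and 69601 (-13.74, SE 0.84, adjusted p = 6.69e-12). PNLIPRP1, a lipase relative, differed by -13.22 (SE 1.11). Islet medians of all 4 were at most 1.92, so these folds rest on few counts. The islet library with the most acinar counts, replicate 7, held 297 normalised CPM of carboxypeptidase CPA1 and 105 of the lipase CEL, where the islet medians were 3.53 and 1.18. Without it CPA1 moved from -10.59 (SE 1.38) to -13.48 (SE 0.85), CEL from -9.66 (SE 1.28) to -12.57 (SE 0.65), PNLIPRP1 to -14.04 and the colipase CLPS from -12.62 to -13.30. Without islet replicate 8, CELA2A moved to -15.09 and PNLIP to -14.71. Trypsin and elastase genes have near-identical copies, and their single values are uncertain.

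Proteins of the zymogen granule and of acinar secretion were lower for all 10 tested (median -10.58), none with overlap. PDIA2, a pancreatic disulfide isomerase, was at 0 in 7 of 8 islet libraries and at 825, 1086 and 1625 normalised CPM in pancreas (-13.08, SE 0.46, adjusted p = 6.91e-15). SYCN (syncollin) was at 0 in 6 islet libraries (-12.79, SE 0.64), and the serpin SERPINI2 (-11.61, SE 0.56) and kallikrein KLK1 (-11.13, SE 0.61) at 0 in 4 each. Their 8 islet libraries held at most 4 raw counts of PDIA2, 7 of SYCN, 12 of SERPINI2 and 14 of KLK1. PDIA2 moved to -15.05 and SYCN to -14.69 without islet replicate 8, SERPINI2 to -12.34 without replicate 4 and KLK1 to -12.58 without replicate 7.

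The transcription factors of acinar identity were lower in islets for 8 of 9 tested, and none was higher (median -4.83). RBPJL, the acinar partner of PTF1A, was at 0 in 6 islet libraries and at most 1.23 normalised CPM in the rest, with 306, 375 and 522 in pancreas (-10.79, SE 0.41, adjusted p = 3.1e-14, and -12.03 without islet replicate 7). PTF1A itself had 0, 0.0721 and 0.374 in islets and 16.3, 24.1 and 33.3 in pancreas (-7.25, SE 0.36, adjusted p = 3.83e-13). BHLHA15 (MIST1), which builds the secretory apparatus, and the nuclear receptor NR5A2 differed by -5.79 (SE 0.32) and -5.55 (SE 0.32). Receptors through which hormones and nerves stimulate the exocrine pancreas were lower for all 4 tested. They were the secretin receptor SCTR (-5.18, SE 0.34), the muscarinic receptor CHRM3 (-3.76, SE 0.33), the gastrin-releasing peptide receptor GRPR (-2.95, SE 0.26) and VIPR1, a receptor for vasoactive intestinal peptide (-1.38, SE 0.36), of which VIPR1 overlapped.

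Duct genes split. Of 15 tested, 9 were lower and 4 higher (median -2.18). TFF2, a trefoil peptide, had 0, 0.168 and 6.39 normalised CPM in islets against 709, 1544 and 2212 (-10.63, SE 0.73, and -12.37 without islet replicate 7). The bicarbonate transporter SLC4A4 had 2.72, 12.8 and 42.5 against 1589, 1928 and 3189 (-7.13, SE 0.51, adjusted p = 2.65e-10). The transcription factor ONECUT1 (-6.03, SE 0.36) and the chloride channel CFTR (-4.62, SE 0.52) also fell without overlap. The higher members were EPCAM, an adhesion protein of epithelial cells in general (1.30, SE 0.18, adjusted p = 2.69e-06), ANXA4 (0.70, SE 0.15), SPP1 (1.01, SE 0.38, adjusted p = 0.0296) and the anion exchanger SLC26A6 (0.86, SE 0.37, adjusted p = 0.0485). Osteopontin (SPP1) and SLC26A6 did not pass with animal as a block (adjusted p = 0.0854 and 0.0823), nor without islet replicates 1, 6 and 7 (0.113 and 0.0793). Leaving out single libraries also lost both. SPP1 failed without pancreas replicates 2 or 5 and islet replicates 1, 3, 4 or 7, and SLC26A6 without pancreas replicates 1, 2, 4, 6 or 8 and islet replicates 1, 2, 4, 7 or 8.

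Epithelial junction genes were lower for 11 of 15 tested and higher for 2 (median -1.44), and 11 did not overlap. GJB1, a gap junction protein of acinar cells, was at 0 in 4 islet libraries and had 11.9, 22.7 and 53.0 normalised CPM in pancreas (-7.08, SE 0.46, and -7.73 without islet replicate 7). GRHL2, a transcription factor of the epithelial state, had 1.15, 1.40 and 4.18 in islets and 68.3, 88.5 and 97.1 in pancreas (-5.49, SE 0.22, adjusted p = 2.24e-14). The claudin CLDN10 differed by -5.13 (SE 0.28). The 2 higher members were GJD2, the gap junction protein that couples beta cells, and N-cadherin CDH2. GJD2 had 30.4, 44.4 and 54.8 in islets against 0.383, 2.78 and 6.50 in pancreas (4.08, SE 0.30, adjusted p = 1.61e-10), and CDH2 differed by 2.01 (SE 0.43) with overlap.

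Markers of vessels and blood cells were lower in islets or did not pass. Endothelial genes were lower for 9 of 11 tested and higher for none (median -1.18). The cadherin CDH5 overlapped between groups and did not pass (-0.18, SE 0.42, adjusted p = 0.727). With animal as a block CDH5 passed as lower (-0.78, adjusted p = 0.0476). The angiopoietin receptor TEK stood out, with 0.609, 1.64 and 5.65 normalised CPM in islets and 26.3, 56.5 and 82.5 in pancreas (-4.68, SE 0.33, adjusted p = 1.24e-10). Differences in TIE1 (-1.38, SE 0.29), the sialomucin EMCN (-1.38, SE 0.22) and ROBO4 (-1.38, SE 0.44) were smaller, and ROBO4 did not pass with log2 library total as a covariate (adjusted p = 0.161) or with no filter on low counts (adjusted p = 0.0516). Myeloid genes were lower for 4 of 8 tested, and the other 4 did not pass. Among those 4, CD68 spanned 9.63, 10.95 and 19.0 in islets and 6.18, 10.93 and 15.3 in pancreas. Its difference was 0.18 (SE 0.20, adjusted p = 0.46). The scavenger receptor CD163, of tissue macrophages, had 0, 0.180 and 3.74 in islets and 17.4, 39.9 and 92.6 in pancreas (-5.74, SE 0.58, and -6.93 without islet replicate 4). MRC1 (-2.19, SE 0.56, and -3.16 without islet replicate 8), ITGAM (-1.93, SE 0.38) and CSF1R (-1.60, SE 0.40) had overlapping groups, and MRC1 did not pass in the 5 animals with both tissues (adjusted p = 0.0794). PTPRC, the leukocyte antigen CD45, was the 1 lymphocyte gene tested (-2.35, SE 0.38, adjusted p = 1.76e-05). The T cell genes CD3E and CD2 had medians of 0 in islets and of 1.30 and 1.11 in pancreas, under the test's minimum.

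Stromal genes went both ways. Of 14 tested fibroblast, stellate and mural genes, 6 were lower and 5 higher (median 0.55). The proteoglycans DCN (-3.69, SE 0.36) and LUM (-3.15, SE 0.26), the receptor PDGFRA (-3.42, SE 0.39) and the pericyte gene RGS5 (-2.34, SE 0.34) were lower without overlap. Collagen COL1A1 was among the higher members and had 20.4, 66.8 and 175 normalised CPM in islets and 12.3, 17.7 and 38.8 in pancreas (2.04, SE 0.40, adjusted p = 0.000225). Fibronectin FN1 (1.83, SE 0.44), SPARC (1.80, SE 0.34), periostin POSTN (1.08, SE 0.31) and collagen COL3A1 (0.88, SE 0.34) were the other 4, all with overlap. With animal as a block POSTN (adjusted p = 0.155) and COL3A1 (adjusted p = 0.102) did not pass, and FN1 did not in the 5 animals without the block (adjusted p = 0.0656). In the neural list 4 of 6 tested were higher and none lower, among them UCHL1 (4.14, SE 0.32) and NGFR (3.04, SE 0.50, and 3.73 without pancreas replicate 5). Endocrine cells express UCHL1 too. Lipoprotein lipase LPL (-7.21, SE 0.44) and the lipid carrier FABP4 (-7.19, SE 0.55) were the 2 tested genes of the adipocyte and erythroid list. The adipocyte markers ADIPOQ and PLIN1 had pancreas medians of 0.868 and 0.595 normalised CPM.

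Basement membrane and integrin genes were lower for 11 of 23 tested and higher for 6 (median -0.72). Laminin LAMB2 (-2.35, SE 0.25), perlecan HSPG2 (-2.14, SE 0.27) and integrin ITGA6 (-2.07, SE 0.19) led the lower ones, and collagen COL4A2 (1.72, SE 0.33) and integrin ITGB1 (1.20, SE 0.13) the higher ones. Islet replicate 6 held the highest COL4A2 of its group, 434 normalised CPM where the islet median was 103.

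Antigen presentation genes were mostly lower in islets. Of 8 tested antigen presentation genes 5 were lower and 1 higher (median -2.07). The immunoproteasome subunit PSMB10 had 5.84, 7.72 and 10.7 normalised CPM in islets and 98.5, 160.8 and 245 in pancreas (-4.36, SE 0.17, adjusted p = 2.24e-14). The class II invariant chain CD74 (-3.69, SE 0.33), the class I regulator NLRC5 (-2.86, SE 0.27) and the subunit PSMB9 (-2.31, SE 0.25) fell too, none with overlap. TAPBP (tapasin), which loads peptide onto class I molecules, was higher (1.29, SE 0.15, adjusted p = 1.03e-07). Interferon response genes were lower for 5 of 11 tested and higher for 4. MX2 (-2.62, SE 0.40) and OAS2 (-2.31, SE 0.41) did not overlap, while IFI6 (2.50, SE 0.77, and 3.41 without pancreas replicate 3) was higher with overlap. By limma-voom IFI6 did not pass (2.31, adjusted p = 0.125), nor with animal as a random effect (adjusted p = 0.107). With animal as a block, where 53.8% of all genes passed, 2 of the 5 lower genes did. VCAM1, a leukocyte adhesion molecule (-3.24, SE 0.57, and -2.46 without pancreas replicate 8), and tissue factor F3 (-2.42, SE 0.18) were among 4 of 5 tested inflammation genes that were lower, none of the 5 being higher. CMAH, the enzyme that makes the non-human sialic acid recognised by human antibodies, had 0, 0.532 and 1.83 in islets and 25.0, 94.7 and 157 in pancreas (-6.69, SE 0.54, adjusted p = 4.62e-09). Its 2 lowest islet libraries were at 0, and no islet library reached the pancreas.

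Protein folding genes of the endoplasmic reticulum (ER) moved in both directions. Of 20 tested, 9 were higher and 7 lower, with a median of -0.13, so the share that passed was above the 61.1% of all genes while the list had no common direction. The chaperone HSPA5 (BiP) had 900, 1173 and 1524 normalised CPM in islets and 308, 396 and 597 in pancreas (1.49, SE 0.18, adjusted p = 1.82e-07). HYOU1 (1.88, SE 0.18), PDIA6 (1.71, SE 0.16) and MANF (1.62, SE 0.15) were higher as well. On the other side, the disulfide isomerase P4HB had 213, 303 and 458 in islets and 980, 1413 and 2047 in pancreas (-2.21, SE 0.19, adjusted p = 1.98e-09). CRELD2 (-2.63, SE 0.25) and the degradation factors SEL1L (-2.09, SE 0.17) and EDEM1 (-1.36, SE 0.22) were lower. None of these 8 genes overlapped between groups.

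In the amino acid stress list 5 of 12 tested were lower and 3 higher (median -0.62). The serine synthesis enzymes PSAT1 (-4.21, SE 0.57) and PHGDH (-2.64, SE 0.30) and SHMT2 (-1.62, SE 0.19), which converts serine to glycine, were lower and the stress regulators TRIB3 (2.30, SE 0.49) and SESN2 (2.02, SE 0.39) higher, all without overlap. Heat shock genes were higher for 6 of 13 tested and lower for 2. For this list and the amino acid stress list, the share that passed was near the 61.1% of all genes. The small heat shock protein HSPB8 had 73.5, 101 and 128 normalised CPM in islets and 2.47, 6.79 and 11.3 in pancreas (3.92, SE 0.23, adjusted p = 4.45e-12). HSPH1 (2.23, SE 0.39) was higher with its top value, 347, in islet replicate 6, and the co-chaperone BAG3 was lower (-2.24, SE 0.39).

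Immediate early genes gave 3 higher and 3 lower of 14 tested, a smaller share than among all genes. MYC, a growth regulator, had 0.812, 2.96 and 6.36 normalised CPM in islets and 60.5, 104 and 159 in pancreas (-5.21, SE 0.33, adjusted p = 3.61e-11). IER3 (-2.43, SE 0.43) and FOSL2 (-1.61, SE 0.20) were also lower without overlap. FOS spanned 19.1, 160.8 and 1055 in islets and 22.7, 28.3 and 98.8 in pancreas (2.61, SE 0.70, adjusted p = 0.00432), and FOSB differed by 3.74 (SE 1.13). Both had their highest value in islet replicate 6, and without it they differed by 1.70 (SE 0.49) and 2.20 (SE 0.80). FOSB differed by 4.42 without pancreas replicate 8. It did not pass by limma-voom (2.26, adjusted p = 0.256), with animal as a random effect (adjusted p = 0.258) or in the 5 animals with both tissues (adjusted p = 0.0653). NR4A2 was higher without overlap (1.27, SE 0.24). With animal as a block 6 of the 14 were lower in place of 3.

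Genes of energy use differed one by one. Hypoxia genes were higher for 7 of 14 tested and lower for 6. The oxygen-regulated factor HIF1A (1.24, SE 0.14) and its target VEGFA (0.88, SE 0.13) were higher, while the target EGLN3 was lower (-3.18, SE 0.42). Glycolysis genes were higher for 9 of 15 tested and lower for 3. GAPDH had 237, 293 and 459 normalised CPM in islets and 30.2, 43.9 and 51.2 in pancreas (2.93, SE 0.17, adjusted p = 2.79e-12). ALDOC, at 0 in 5 pancreas libraries (4.34, SE 0.52, and 5.12 without pancreas replicate 7), ENO2 (3.35, SE 0.72) and PFKP (2.59, SE 0.28) were higher, and lactate dehydrogenase LDHB was lower, with 0.144, 1.22 and 4.67 against 9.89, 17.1 and 32.7 (-3.62, SE 0.38, adjusted p = 4.5e-08). Cholesterol genes were higher for 7 of 16 tested and lower for 5. INSIG1, which restrains cholesterol synthesis, was lower, with 9.54, 22.7 and 38.9 in islets and 112, 192 and 222 in pancreas (-2.92, SE 0.25, adjusted p = 2.57e-09).

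Antioxidant genes were higher for 7 of 14 tested and lower for 4 (median 0.56). Sulfiredoxin SRXN1, which repairs oxidised peroxiredoxins, had 30.7, 53.3 and 77.4 normalised CPM in islets and 0.663, 1.64 and 2.88 in pancreas (4.90, SE 0.27, adjusted p = 1.18e-12). The secreted glutathione peroxidase GPX3 had 76.2, 128 and 169 against 3.71, 6.03 and 21.2 (3.87, SE 0.27, adjusted p = 1.24e-10). Catalase CAT went the other way, with 46.4, 52.2 and 75.4 against 131.3, 288 and 445 (-2.41, SE 0.19, adjusted p = 3.57e-10). The extracellular dismutase SOD3 (-4.64, SE 0.45) and the ER peroxiredoxin PRDX4 (-3.19, SE 0.17) were lower too. No islet library overlapped the pancreas in any of these 5 genes.

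Growth factor genes were lower for 10 of 15 tested and higher for 3 (median -1.63). IGF1, insulin-like growth factor, was at 0 in 2 islet libraries and had 14.5, 32.8 and 85.4 normalised CPM in pancreas (-5.92, SE 0.54, and -6.60 without islet replicate 4). The receptor ERBB2 had 0.721, 1.36 and 2.34 in islets and 34.6, 45.3 and 57.4 in pancreas (-5.10, SE 0.20, adjusted p = 2.24e-14). FGFR2 (-3.96, SE 0.31) and the hepatocyte growth factor HGF (-3.03, SE 0.42, and -3.69 without islet replicate 4) were lower. The 3 higher members were the receptor IGF1R, with 225, 469 and 668 against 126, 166 and 216 (1.46, SE 0.18), and the adaptors IRS1 (1.5, SE 0.21) and IRS2 (1.87, SE 0.32). Among 7 tested proliferation genes 4 were higher and 2 lower. Topoisomerase TOP2A, of dividing cells, was higher with overlap (2.21, SE 0.50, and 2.80 without pancreas replicate 4), and cyclin CCND1 was lower (-2.93, SE 0.22).

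Lysosome and autophagy genes were higher for 10 of 13 tested and lower for none (median 0.78). NPC2 (2.22, SE 0.22), the proteases CTSD (2.11, SE 0.21) and CTSB (1.77, SE 0.16) and the membrane protein LAMP2 (1.62, SE 0.15) differed most. Ribosomal protein genes were lower for 10 of 12 tested and higher for none (median -1.07), led by RPSA (-2.42, SE 0.22), RPS2 (-2.13, SE 0.24) and RPLP0 (-1.89, SE 0.26). Their summed share of library totals overlapped, at 0.218% to 0.519% of islet counts and 0.324% to 0.544% of pancreas counts. Median shares were 0.274% in islets and 0.438% in pancreas, and over the TMM library size 0.276% and 0.560%. Ribosomal protein genes have many near-identical copies in a mammalian genome, so their values are uncertain. Of 17 tested nuclear genes of oxidative phosphorylation 4 were lower and 2 higher, a smaller share than among all genes. NDUFA4 (-1.30, SE 0.24) and UQCRFS1 (0.56, SE 0.13) were at the ends.

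None of the 13 mitochondrially encoded genes passed edgeR's test in either direction (0 also at an unadjusted p of 0.05, list median 0.06), where 61.1% of all genes did. By limma-voom 0 passed and by DESeq2 1, COX1. Their summed share of library totals, which are not TMM-scaled as the test is, was 4.34% to 12.3% in islets and 2.995% to 7.41% in pancreas. The highest islet value, in replicate 6, was 12.31% (95% Wilson interval 12.28 to 12.35). Median shares were 7.39% in islets and 4.39% in pancreas, and over the TMM library size 5.73% and 5.52%. With animal as a block 2 passed, ATP8 (-0.82, adjusted p = 0.00733) and COX3 (-0.89, adjusted p = 0.0427), and without islet replicate 6 COX3 passed (-0.92, adjusted p = 0.0177). With log2 library total as a covariate ATP8 passed (-2.92, adjusted p = 0.0475). The spread between animals was wide. ATP8, a subunit of ATP synthase, had 10.3 CPM of the library total in the islets of 16CS60 and 11.9 in its pancreas, and 35.8 in the islets of 15AS28. The other 6 islet libraries held 1187 to 2264, and the other 7 pancreas libraries 1139 to 1817. In the other 32 libraries of the series, Low samples included, the lowest ATP8 value was 253.7. The low value of 16CS60 was thus present in both of its tissues. ND1, a subunit of complex I, was at 941 in its islets and 479 in its pancreas, 0.143 and 0.194 times the medians of the groups. In the same order ND2 (0.381 and 0.430), ND4L (0.510 and 0.423) and COX3 (0.400 and 0.528) were also low, and the other 8 genes lay between 0.516 and 1.27 times the medians. ATP6, whose gene overlaps that of ATP8, was at 0.938 and 0.943 times the medians. The islets of 15AS28 were low in ND1 as well as ATP8, with ND1 at 2664, or 0.405 times the islet median.

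**Figure D4:**
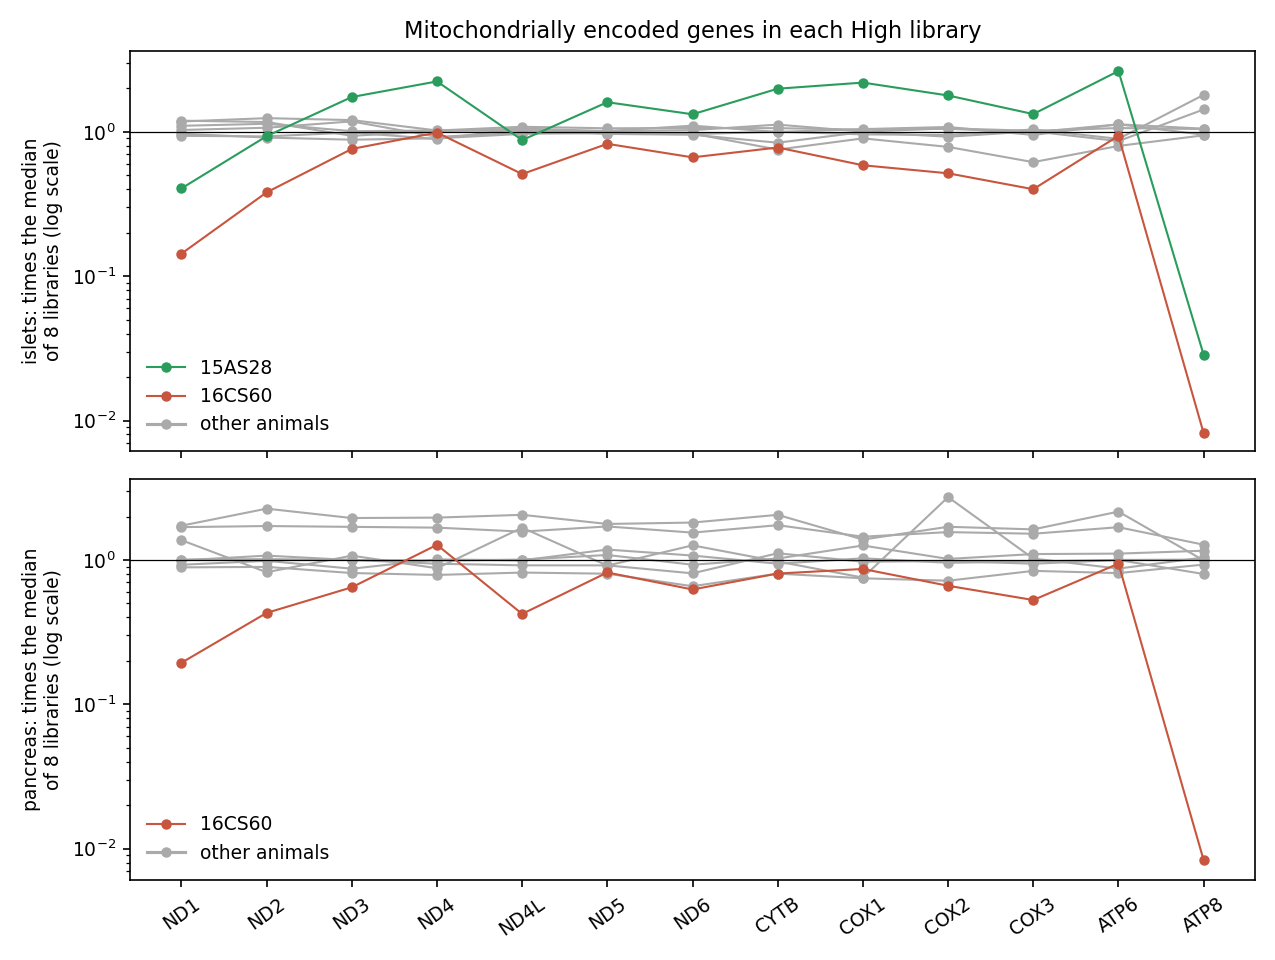
CPM of the library total of 13 mitochondrially encoded genes, each divided by the median of its 8 libraries, on a log axis, with islets above and pancreas below. Animal 16CS60 is lowest relative to the medians in ATP8 and ND1 in both tissues and also low in ND2, ND4L and COX3. The islets of 15AS28 are low in ATP8 and ND1 and above the median in most other genes.

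Outside the lists, the 10 largest differences in each direction with no overlap were examined. SRRM3, a splicing factor of neurons and endocrine cells, had 3.19, 5.74 and 19.8 normalised CPM in islets and no count in any pancreas library, at least 47.1-fold higher against a floor of 3 counts over the 8 pancreas libraries (adjusted p = 2.53e-06). RAB39A had a count in 1 pancreas library (6.34, SE 0.46, and 7.69 without pancreas replicate 5). ANXA10, an annexin, had 114, 145 and 164 in islets and 0.454, 1.24 and 7.00 in pancreas (6.29, SE 0.31, and 6.92 without pancreas replicate 7). The notch ligand DNER (5.69, SE 0.33), the mucin MUC13 (5.57, SE 0.31) and TMEM176A (5.43, SE 0.44) had low or no counts in pancreas. PAPPA2, a protease that frees insulin-like growth factors from their binding proteins, had 666, 946 and 1437 against 10.3, 13.1 and 39.5 (5.66, SE 0.30, adjusted p = 1.42e-12). LRRC10B (5.82, SE 0.55, and 6.41 without pancreas replicate 6) lies next to SYT7, and TMEM176A overlaps TMEM176B, by RefSeq's Sscrofa11.1 gene models. SYT7 (3.72) and TMEM176B (4.09) were higher in islets too, while MDH2 next to SRRM3 (0.21) and HEG1 next to MUC13 (-0.071) did not pass. RAB9B differed by 5.43 (SE 0.49, and 6.47 without pancreas replicate 7).

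Among the genes lower in islets, GALNT6, a glycosyltransferase, had 1.44, 3.23 and 7.11 normalised CPM in islets and 4604, 32921 and 43643 in pancreas (-12.98, SE 0.70, adjusted p = 1.06e-12). It is unplaced in RefSeq's Sscrofa11.1 annotation, so its neighbours could not be compared, and whether its reads belong to another gene was not tested. SLC25A45, a mitochondrial carrier, had no count in any islet library and 19.2, 42.6 and 68.9 in pancreas, at least 599.8-fold lower against a floor of 3 counts over the 8 islet libraries. The amino acid transporter SLC43A1 (-9.95, SE 0.42), the collagen COL11A2 (-9.25, SE 0.58), C16orf89 (-9.14, SE 0.28), the oestrogen receptor ESR2 (-8.67, SE 0.40) and the ribonuclease RNASE4 (-8.46, SE 0.46) followed. Without islet replicate 7, SLC43A1 and COL11A2 differed by -11.17 and -10.67. FRMD8 next to SLC25A45 (-3.15), RTN4RL2 next to SLC43A1 (-4.99) and SYNE2 next to ESR2 (-1.35) were lower in islets too. TIMM10 next to SLC43A1 (0.26) and RXRB next to COL11A2 (-0.26) did not pass. Cytokine genes IL21 and IL2 and the neighbouring ADAD1, a testis gene by its usual description, completed the 10. IL2 had 39.9, 76.6 and 87.7 in pancreas and at most 1.31 in islets (-8.30, SE 0.43, and -10.17 without islet replicate 4). IL21 had 36.8, 49.7 and 83.4 in pancreas (-8.59, SE 0.32), and ADAD1 61.2, 102 and 116 (-9.16, SE 0.35, and -9.94 without islet replicate 4). The 3 genes are consecutive in the RefSeq annotation, where the models of IL2 and ADAD1 overlap, and with no strand setting stated for the counting their reads may not be separable. The T cell genes given above, CD3E and CD2, were at a median of 1.30 and 1.11 in the same pancreas libraries.

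Within the islets, the genes of at least 100 normalised CPM that varied most between libraries were ATP8, GAL, FOS, CP, CNTN4 and SNORA21. GAL, the neuropeptide galanin, spanned 3.50 to 716 (median 198) and had 9 counts in its lowest library, replicate 6. That kept it under the test's minimum. With no filter on low counts it was higher in islets (8.01, SE 1.13, adjusted p = 3.2e-05), and its pancreas libraries held 0 to 2.65. CP, ceruloplasmin, ran from 13.6 in replicate 6 to 297 in replicate 7, and CNTN4, a neural adhesion molecule, from 19.6 to 338. Within the pancreas the most variable were ATP8, SORD, ALB, PDK4, MT1X and PNLIPRP1. ALB, serum albumin, ran from 11.5 to 1183 with its top in replicate 1, SORD, sorbitol dehydrogenase, from 10.9 to 511, and PDK4, a kinase that switches off glucose oxidation, from 25.5 to 1363. PNLIPRP1 ran from 1440 in replicate 3 to 40473 in replicate 8.

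The comparison could also be read within an animal for the 5 with both tissues. All 5 animals went the same way as the whole comparison in 5881 of the 7134 genes that passed (82.4%); these animals supply 10 of the 16 libraries, so this is a description and no separate test. The INS ratio of islets to pancreas ran from 4.13 on the log2 scale in 11KS28 to 6.23 in 15LS29, and that of CPB1 from -14.64 in 11KS28 to -11.46 in 16CS60. The range for MYC was narrow, from -5.69 to -4.99. FOS was higher in the islets of 3 animals and lower in those of the other 2.

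**Figure D5:**
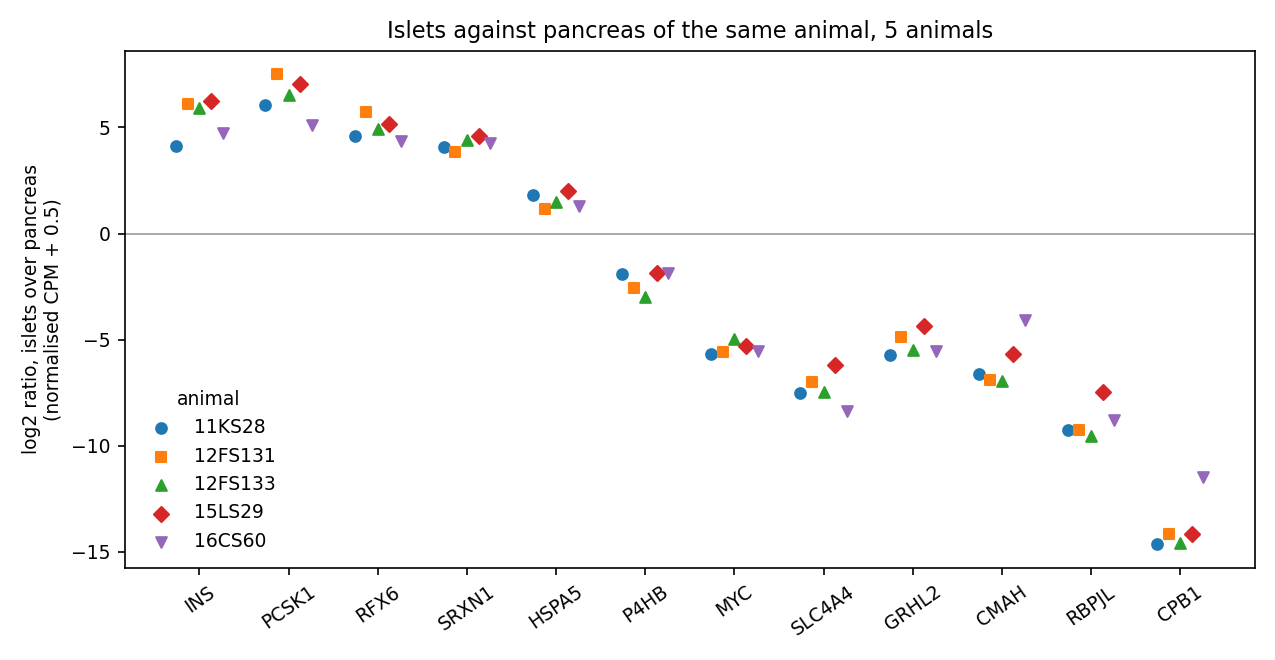
Log2 ratio of islets over pancreas (normalised CPM plus 0.5) of 12 genes in each of the 5 animals with both tissues, with 1 marker shape per animal. INS, PCSK1, RFX6, SRXN1 and HSPA5 are above 0 and the other 7 genes below 0 in all 5 animals.

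Whether the tissue difference itself depended on the density label was asked with the Low samples, 9 islet and 9 pancreas libraries. The difference in High minus that in Low passed for 5718 of 14337 genes (39.9%), 3183 of them higher and 2535 lower, or 3995 and 1670 with upper-quartile scaling. With animal as a block the split turned, 2770 higher and 3251 lower. But 7 of the 9 Low pancreas libraries held fewer than 1000000 counts, and without them 64 genes passed (0.446%), 55 higher and 9 lower, of which 58 were among the 5718. The largest positive values were C10orf105 (7.41, SE 1.22), SRRM3 (6.87, SE 1.12), FBN3 (6.85, SE 1.06), ZNF541 (6.77, SE 1.12), TMC3 (6.69, SE 1.30) and GRIN2B (6.69, SE 1.29), whose median raw counts in Low pancreas were 2 to 12. Apart from SRRM3 these genes had medians of at most 0.513 CPM in either High tissue and at most 0.209 in Low islets, against 11.3 to 33.9 in Low pancreas. Their positive values reflect lower medians in islets than in pancreas in Low, not a larger difference in High. The largest negative ones were mostly acinar products. CELA2A (-4.43, SE 0.95), CPB1 (-3.86, SE 0.96), PNLIP (-3.56, SE 0.96), GALNT6 (-3.16, SE 0.75), PNLIPRP1 (-3.11, SE 1.17) and CLPS (-2.92, SE 0.87) had a larger fall in High than in Low. Not one of these 12 passed without the 7 shallow libraries (adjusted p from 0.0645 to 0.616). Among the 64, 9 were granin or exocytosis genes, all higher, of 29 tested. That fit rests on 2 Low pancreas libraries, and 1 of them, Low replicate 9, held 7803 CPM of INS where the other 8 held 67.5 to 296.7. With all libraries but that one, PTPRN (3.10, adjusted p = 1.79e-05) and VGF (1.54, adjusted p = 0.0298) passed and SCG3 did not (0.36, adjusted p = 0.586).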

How the data were processed

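RNA-seq libraries were put into groups from tissue (title) and density (label), and table columns were assigned to samples by animal code with tissue. The 1 column left unmatched was not used. The authors deposited whole-number counts of reads per Ensembl gene. Per the submitters' processing notes, the tools were FastQC, HISAT2 2.0.2, Subread and edgeR, with build susScr3. Counting options and strand setting: not given in the sources used here. Of 25880 identifiers 14857 had a symbol. Members and gene lists (39 lists, 611 entries, 521 matched) were chosen with earlier results of these data known.

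The test was edgeR 4.0.16 under R 4.3.3 (filterByExpr, TMM, robust quasi-likelihood, two-sided, Benjamini-Hochberg adjusted p of 0.05, and glmTreat for 2-fold). DESeq2 1.42.0 and limma 3.58.1 were alternatives. On simulated counts for islets against pancreas (11685 genes, 50 changed at each fold) 10, 31, 48 and 50 were recovered at 1.5-, 2-, 4- and 8-fold, with 8 calls among 11485 unchanged. Far fewer genes were changed there than passed in the real comparison, so these rates do not carry over to it. Named genes were up to 4 largest that passed in each direction per list, members that went against their list, fixed hormone and enzyme genes, the 10 largest outside the lists in each direction, the 10 most abundant and 6 most variable per tissue, and the 6 largest interaction genes in each direction. PTPRN, VGF and SCG3 in the interaction, PTPRN2, COL3A1, the DESeq2 call of COX1 and the neighbouring genes were chosen after their values were seen. So were CD68 and CDH5. Floors are 3 counts and Wilson intervals are at 95%. Animal codes in the titles pair libraries of 5 animals. Their expression deviations correlated by 0.0522 to 0.192 between tissues, best with their own animal in 4 of 5. No replicates of a group were identical (56 pairs, lowest chi-square per degree of freedom 7.57). Some genes that the lists or the naming rule cover are not reported here.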

Additional observations from a re-analysis of the deposited data

Results flagged for a closer look

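Among 420 groups of 8 values (named genes and summed shares, islets or pancreas), 56 had a highest or lowest library set apart by a gap above Dixon's critical value for 8 samples. Chance alone sets apart about 1 in 20 groups where values are normally distributed and groups are independent. Groups here share the same libraries, and some rest on few counts. RAB39A in pancreas, for example, was set apart by 1 count. The 56 of 420 therefore cannot be read against that rate. Gene values are normalised CPM, and no cause was tested.

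Islet replicate 6 (15AS28) was the library set apart most often. It was lowest in SCG3 (322), PCSK1 (310), CPE (1030), PAM (349), TMED6 (1.95), EDEM1 (45.9), ITGB1 (176) and RAB39A (4.28). It was highest in ABCC8 (894), NEUROD1 (155), ROBO4 (26.1), HSPH1 (347), BAG3 (23.4), PFKP (32.7), HSPG2 (130.4), COL4A2 (434) and LRRC10B (18.7), and in the mitochondrially encoded share (12.3%).

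Islet replicate 7 (15LS29) was highest in the acinar share (0.0611%), CEL (105), KLK1 (3.44), RBPJL (1.23), TFF2 (6.39), TMEM176A (27.8), SLC43A1 (1.97), COL11A2 (1.97) and ESR2 (0.491), and lowest in RPS2 (1.97). Replicate 8 (16CS60) was highest in CELA2A (2.03), PDIA2 (0.812) and SYCN (1.42) and lowest in UCHL1 (21.5) and ND1 (633). Replicate 4 was highest in IL2 (1.31) and replicate 2 lowest in GPX3 (76.2).

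In pancreas, replicate 7 (16CS60) was highest in the granin share (0.135%), VGF (6.50), GCGR (3.0), SYT4 (13), ANXA10 (7.00) and RAB9B (4.0), and lowest in DCN (10.5), CTSB (25.0), ATP8 (11.0) and ND1 (445). Replicate 8 was highest in CSF1R (16.8), PTPRC (55.5) and VCAM1 (99.5). Replicate 5 was highest in SLC30A8 (16.9), COL1A1 (38.8) and RAB39A (0.331) and lowest in HSPG2 (114). The lowest values of PNLIPRP1 (1440, replicate 3), SYCN (372, replicate 6), IL2 (39.9, replicate 6) and UQCRFS1 (34.7, replicate 1) were also set apart.

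By edgeR's interaction term, the difference of islets minus pancreas in High minus that in Low was positive for C10orf105 (7.41), SRRM3 (6.87), FBN3 (6.85), ZNF541 (6.77), TMC3 (6.69), GRIN2B (6.69), PTPRN (3.62), VGF (2.81) and SCG3 (2.17). For C10orf105, FBN3, ZNF541, TMC3 and GRIN2B the medians were near 0 except in Low pancreas. It was more negative in High for CELA2A (-4.43), CPB1 (-3.86), PNLIP (-3.56), GALNT6 (-3.16), PNLIPRP1 (-3.11) and CLPS (-2.92). PTPRN (adjusted p = 0.00228), SCG3 (0.0227) and VGF (0.0253) were chosen from the fit without the 7 shallow Low pancreas libraries. That they passed in it follows from this choice. The other 12 were chosen from the fit of all libraries and did not pass without the shallow ones. Only 2 Low pancreas libraries remain there. With all libraries but Low pancreas replicate 9, SCG3 did not pass (0.36, adjusted p = 0.586).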

How the results depend on the processing

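Islets against pancreas gave 6283 to 8916 genes that passed in 29 alternatives, and 5130 genes passed in the same direction in all of them. With 1 library left out 6889 to 7365 genes passed, and no gene that passed before changed sign. The replicate block, with the animal as a fixed term over 5 animals, gave 6283 genes, and 6021 for the difference between densities. Among 5681 alternative values of 196 genes examined singly, 5603 kept direction and side of the threshold, 59 no longer passed, 17 newly passed and 2 reversed. The 2 were ND1 (-0.51) and PTPRN2 (-0.053) with log2 library total as a covariate, and neither passed in the main comparison. Apart from the genes named beside their results, the block, as a fixed term or a random effect, changed the call of no other gene that the report names. For CD68 only the fixed term was examined.

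Shares moved with the denominator. Without mitochondrially encoded genes and genes above 5% of a library, medians were 1.27% for hormones in islets (INS is one of those genes), 4.27% and 0.0899% for granins in islets and pancreas, 19.2% for acinar products in pancreas, and 0.489% and 0.664% for ribosomal proteins in islets and pancreas. Over the TMM library size they were 2.32% for granins in islets, 31.3% for acinar products in pancreas and 0.560% for ribosomal proteins in pancreas. For the difference between densities, 64 genes (55 higher, 9 lower) passed without the shallow Low pancreas libraries, 8812 (4264 lower) with no filter on low counts, and 1670 were lower with upper-quartile scaling. The cause was not tested. Leaving out islet replicates 1, 6 and 7 together, or Low pancreas replicate 9, was chosen after seeing the data. Depth limits genes at or under the floor, above all acinar genes in islets and the Low pancreas libraries.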
